A study of Mus musculus with 24 samples.

Results

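The major histocompatibility complex (MHC, called H2 in the mouse) and the genes that load its molecules with peptide were examined in sorted mammary epithelial cells. The set held the rows of the gene count table with a protein-coding symbol starting with H2-, together with B2m, Tap1, Tap2, Tapbp, Psmb8, Psmb9, Psmb10, Nlrc5, Ciita, Cd74 and Erap1. It came to 45 genes of 27179, 34 of them H2- symbols and 39 of the 45 on chromosome 17. A low-count filter left 37 of the 45 genes among 18109 tested genes.

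The cells came from pubertal mice. Their glands had been microdissected to separate ducts from terminal end buds (TEBs), the bulbous ends that drive ductal growth. Cells negative for lineage markers and positive for EpCAM were sorted into basal (high Cd29) and luminal (low Cd29) fractions, in 2 mouse models. In Elf5-rtTA-IRES-GFP mice, called the Elf5 model here, luminal cells were split into GFP+ and GFP-, the GFP being tied to Elf5, a luminal progenitor gene. In PR-cre/Rosa26-LSL-eYFP mice, called the PR-cre model, luminal cells were split into YFP+ and YFP-, the YFP marking cells in which cre under the progesterone receptor gene had been active. The 6 populations and 2 tissues gave 12 groups of 2 bulk RNA-seq libraries, 24 in all. The labels give no strain, age in days or treatment for either model, and no separate control genotype was analysed here.

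Class I MHC molecules are found on nearly all nucleated cells and show peptides from the cell's own proteins to CD8 T cells. A class I molecule is a heavy chain, such as H2-K1 or H2-D1, bound to beta-2 microglobulin (B2m). Its peptides are cut by the proteasome, which exchanges catalytic subunits for Psmb8, Psmb9 and Psmb10 under interferon, pumped into the endoplasmic reticulum by Tap1 and Tap2, trimmed by Erap1 and loaded with the help of tapasin (Tapbp). Class II molecules, such as the pair of H2-Aa and H2-Ab1, are assembled with the invariant chain Cd74, and H2-Eb1 is another class II chain. They show extracellular peptides to CD4 T cells and are mainly made by dendritic cells, macrophages and B cells. Nlrc5 and Ciita are the transactivators of class I and class II genes.

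Total counts ran from 31.3 to 52.5 in units of 1000000 per library, so 3 counts, used as a detection floor, corresponded to 0.057 to 0.096 counts per 1000000 (CPM). The sorted populations matched their labels by marker genes. The summed level of 8 luminal progenitor genes was 5402 to 61316 CPM in GFP+ and YFP- libraries and 84.9 to 1326 CPM in GFP- and YFP+ libraries, and 9 hormone-sensing genes ran from 404 to 1326 CPM in the former and from 6874 to 11027 CPM in the latter. GFP+ cells were therefore set beside YFP- cells, and GFP- beside YFP+, when the models were compared. Among the libraries, 2 luminal ones stood apart: GFP- duct replicate 2 and YFP- TEB replicate 2 carried 2461 and 495 CPM of 12 keratinocyte markers against 7.92 to 81.3 CPM in the other 22. The counts of called genes without both libraries are given with the alternatives at the end.

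Promoters of class I and class II genes share a module that includes an X2 box (TGACG core, bound by CREB-family factors) and a Y box (CCAAT, bound by NF-Y), to which Nlrc5 or Ciita is recruited. Many class I promoters also hold an interferon-stimulated response element (ISRE). The sequences upstream of 5 genes are shown because they hold letters of both boxes and cover a class I light chain, a classical and 2 nonclassical heavy chains and a class II chain. They come from RefSeq (GRCm38.p6, the mm10 build), read 5′ to 3′ toward the gene, and leave out bases in annotated exons. Capitals mark the CCAAT motif, the TGACG motif and the ISRE core, written GAAANNGAAA, on either strand, and overlapping matches run together. B2m lies at chr2:122147437-122147685 on the plus strand, H2-K1 at chr17:34000348-34000597 on the minus strand, H2-Q7 at chr17:35438905-35439154 on the plus strand, H2-T22 at chr17:36042748-36042960 on the minus strand and H2-Aa at chr17:34287824-34288073 on the minus strand.
B2m: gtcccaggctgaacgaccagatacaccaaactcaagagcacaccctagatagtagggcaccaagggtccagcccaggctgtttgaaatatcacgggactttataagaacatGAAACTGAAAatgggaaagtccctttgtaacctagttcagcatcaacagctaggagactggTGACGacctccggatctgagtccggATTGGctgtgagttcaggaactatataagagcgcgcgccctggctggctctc
H2-K1: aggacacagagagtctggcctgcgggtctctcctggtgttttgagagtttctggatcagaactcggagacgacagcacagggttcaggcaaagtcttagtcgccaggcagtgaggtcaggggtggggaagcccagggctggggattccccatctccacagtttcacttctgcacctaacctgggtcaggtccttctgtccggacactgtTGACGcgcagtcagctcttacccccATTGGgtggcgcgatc
H2-Q7: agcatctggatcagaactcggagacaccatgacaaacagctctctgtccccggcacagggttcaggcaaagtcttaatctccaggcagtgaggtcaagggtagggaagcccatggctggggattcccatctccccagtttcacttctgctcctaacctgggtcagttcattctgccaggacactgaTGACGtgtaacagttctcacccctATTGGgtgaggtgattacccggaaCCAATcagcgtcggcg
H2-T22: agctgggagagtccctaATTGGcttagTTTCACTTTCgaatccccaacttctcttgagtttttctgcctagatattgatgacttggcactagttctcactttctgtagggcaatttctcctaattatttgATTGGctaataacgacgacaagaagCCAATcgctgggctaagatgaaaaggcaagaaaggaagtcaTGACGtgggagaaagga
H2-Aa: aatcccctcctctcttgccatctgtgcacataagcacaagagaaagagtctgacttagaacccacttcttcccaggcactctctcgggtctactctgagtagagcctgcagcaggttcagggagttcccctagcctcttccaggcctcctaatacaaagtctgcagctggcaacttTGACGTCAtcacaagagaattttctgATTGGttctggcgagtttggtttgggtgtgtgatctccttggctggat

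In B2m the ISRE core began 139 bases, TGACG 78 bases and CCAAT 53 bases before the transcription start. H2-K1 had TGACG at 41 and CCAAT at 16 bases before one of its annotated starts. H2-Q7 had TGACG at 64 bases and CCAAT at 40 and 16 bases. In H2-T22 the ISRE core lay at 191 bases, CCAAT at 201, 88 and 63 bases and TGACG at 22 bases. H2-Aa had TGACG at 74 and 71 bases and CCAAT at 48 bases. Promoter windows were available for 38 of the 45 genes. CCAAT was present in the 250 bases upstream of 32 of the 38, against 35.4% of 21262 protein-coding promoter windows, a gene with several windows being counted if any held it. TGACG was present in 15 of the 38, against 20.2% of windows, and the ISRE core in 3 of the 38 (B2m, H2-T22 and H2-T23), against 2.96% of windows. These are exact matches of letters only, so variant forms of a motif, such as a looser ISRE, were not counted or marked. In H2-T22 the TGACG lies nearer the start than the CCAAT matches, unlike in the other 4 genes.

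B2m, H2-K1 and H2-D1 were the most abundant genes of the set. Per kilobase of gene model, averaged over the 24 libraries, B2m stood at 475.9 CPM, H2-D1 at 346.1 and H2-K1 at 342.0, followed by H2-Q4 (83.5), H2-T23 (72.4), Tapbp (64.4), Psmb8 (63.0), Tap2 (43.9) and Psmb9 (29.7). Of the 45 genes, 19 had a mean of at least 10 CPM and 29 of at least 1 CPM. The 8 genes left untested were H2-M genes, which never exceeded 0.296 CPM, and 7 of the tested genes had at least 1 group with no count (H2-Eb2, H2-M10.6, H2-M2, H2-M9, H2-Oa, H2-Ob and H2-T3). No fold change is given for those 7, and medians are over the other 30 tested genes, those with a count in every group.

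Which epithelial cells carried the most class I transcript was asked first by comparing the 8 basal with the 16 luminal libraries. Most class I genes were lower in basal cells, and no class I gene was higher. Of the 37 tested genes, 22 were lower and 2 higher in basal cells, at an adjusted p under 0.05, where 67.7% of all tested genes were called in either direction (32.2% lower and 35.5% higher). The median log2 fold change of the 30 genes was -1.47, against 0.02 over all genes. B2m was 229 ± 54.4 CPM in basal (SD, n = 8) and 498 ± 245 CPM in luminal libraries (SD, n = 16), a log2 difference of -0.99 ± 0.07 (SE, adjusted p = 2.2e-09). H2-K1 ran from 66.35 to 321.9 CPM in basal libraries, with a median of 256, and from 447.1 to 1316 CPM in luminal libraries, with a median of 685. The basal and luminal ranges of H2-K1 did not overlap, and the log2 difference was -1.81 ± 0.06 (adjusted p = 7.7e-14). H2-D1 differed by -1.96 ± 0.07.

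Genes of the steps before the heavy chain were also lower. Psmb8 and Psmb9, the immunoproteasome subunits encoded inside the complex, stood at 11.8 ± 4.78 and 3.89 ± 1.22 CPM in basal cells (SD, n = 8) against 110 ± 77.8 and 33.9 ± 26.7 CPM in luminal cells (SD, n = 16). Their log2 differences were -3.06 ± 0.12 and -2.72 ± 0.11. Tap2 differed by -2.17 ± 0.10 and Tap1, its partner in the transporter, by -0.94 ± 0.06. Erap1 did not pass the test, at -0.08 ± 0.05 (adjusted p = 0.21). Among nonclassical heavy chains with a count in every group, H2-Q2 had the largest called difference, -4.35 ± 0.12, and H2-T24 and H2-M3 did not pass. The 2 genes that were higher in basal cells were Cd74 (1.20 ± 0.27, adjusted p = 0.00081) and Ciita (0.82 ± 0.30, adjusted p = 0.025). The Ciita call was lost without any one of 4 basal libraries (Elf5 duct replicate 1, Elf5 TEB replicate 1, PR-cre duct replicate 1 or PR-cre TEB replicate 2), which leaves 1 gene higher. Of tested markers, 3 of 15 macrophage and dendritic cell, 2 of 5 B cell and 8 of 8 fibroblast markers were higher in basal cells, with 0 lower. Of 10 endothelial markers 5 were higher and 2 lower, and of 8 T and NK cell markers 2 were higher and 1 lower. Of all tested genes 35.5% were higher. The part of such cells in these values was not tested.

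**Figure D1:**
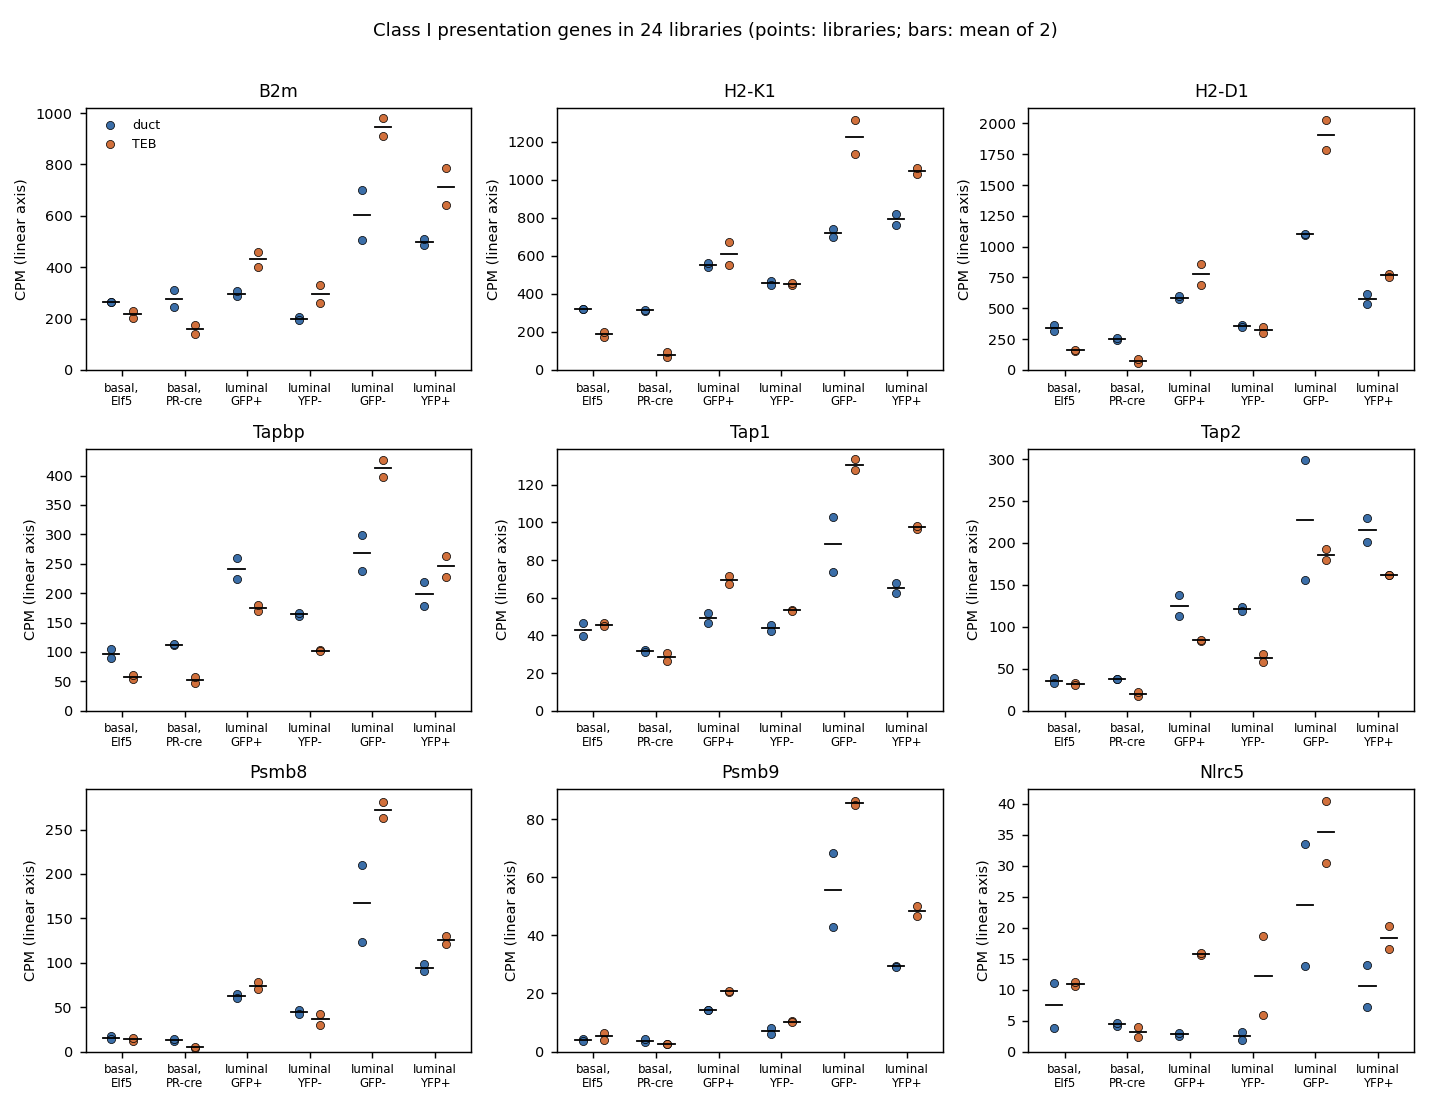
Levels of 9 genes of class I presentation in CPM (linear vertical axes) in the 6 sorted populations, with ducts in blue and TEBs in orange; points are libraries and bars are means of 2. The highest B2m level was 979 CPM, in a GFP- TEB library, and the lowest 140 CPM, in a PR-cre basal TEB library.

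Within luminal cells, the progenitor-side gates (GFP+ and YFP-) were lower than the hormone-sensing gates (GFP- and YFP+). Of the 37 genes, 21 were lower and 4 higher, where 57.1% of all tested genes were called (27.4% lower and 29.6% higher), with a median log2 fold change of -0.88 over the 30 genes against 0.04 over all genes. B2m was 306 ± 91.9 CPM in GFP+ and YFP- libraries and 690 ± 190 CPM in GFP- and YFP+ libraries (SD, n = 8 each), a log2 difference of -1.19 ± 0.08 (adjusted p = 1.9e-09). Psmb9 ran from 6.175 to 20.9 CPM in the former, with a median of 12.4, and from 29.1 to 86.1 CPM in the latter, with a median of 48.4. The 2 arms did not overlap, and the log2 difference was -2.07 ± 0.11. H2-M3, a heavy chain that presents formylated peptides, stood at 2.13 ± 0.61 against 9.0 ± 2.27 CPM (SD, n = 8 each), -2.06 ± 0.19 on the log2 scale. Nlrc5 differed by -1.73 ± 0.29. Erap1 again did not pass, at 0.02 ± 0.06 (adjusted p = 0.89). The sum of the 10 endothelial markers also differed, 5.0 to 24.5 CPM against 44.0 to 109 CPM. Of the 10, 2 were called lower and 0 higher, against 27.4% and 29.6% of all tested genes. The part of endothelial cells in these values was not tested.

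Within each model the order was the same for H2-D1. In the Elf5 model, H2-D1 was 586 ± 19.2 CPM in GFP+ duct, 774 ± 117 in GFP+ TEB, 1100 ± 1.70 in GFP- duct and 1905 ± 174 in GFP- TEB (SD, n = 2 each). In the PR-cre model it was 356 ± 12.1 CPM in YFP- duct, 324 ± 35.2 in YFP- TEB, 577 ± 57.8 in YFP+ duct and 767 ± 14.6 in YFP+ TEB (SD, n = 2 each). GFP- cells were the highest group of their model and YFP+ cells of theirs.

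H2-DMa and H2-DMb1, the chains of the peptide exchanger of class II loading, were lower in the progenitor-side gates. H2-DMa was 1.49 ± 0.45 CPM in GFP+ and YFP- libraries and 8.25 ± 2.06 CPM in GFP- and YFP+ libraries (SD, n = 8 each), a log2 difference of -2.45 ± 0.24 (adjusted p = 1.5e-07). The 2 arms did not overlap, with at most 2.02 CPM in the former and at least 4.80 CPM in the latter. H2-DMb1 differed by -1.34 ± 0.15. Cd74, H2-Aa and H2-Ab1 were higher there, at 1.10 ± 0.33, 2.04 ± 0.55 and 1.46 ± 0.36. H2-DMb2 (-0.91 ± 0.44) and H2-Eb1 (0.05 ± 0.46) did not pass. The summed level of 18 macrophage and dendritic cell markers was 7.05 to 21.0 CPM in GFP+ and YFP- libraries and 2.56 to 8.61 CPM in GFP- and YFP+ libraries, and its part in these values was not tested.

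TEB was then compared with duct, in each layer. In basal cells, most class I genes fell in TEBs. Of the 37 genes, 22 were lower and 0 higher in basal TEB than in basal duct, where 43.6% of all tested genes were called (22.8% lower and 20.9% higher), and the median log2 fold change of the 30 genes was -0.88 against -0.04 over all genes. The 22 include H2-M2 and H2-M9, which had a group with no count. H2-K1 was 322 and 318 CPM in the Elf5 duct libraries and 312 and 316 CPM in the PR-cre duct libraries, against 174 and 201 CPM in Elf5 TEB and 66.35 and 93.6 CPM in PR-cre TEB. All 4 TEB libraries were below all 4 duct libraries, and the log2 fold change was -1.37 ± 0.10 (adjusted p = 1.5e-08). H2-D1 was 361 and 320 CPM in Elf5 duct and 242 and 258 CPM in PR-cre duct, against 153 and 165 CPM in Elf5 TEB and 56.95 and 84.95 CPM in PR-cre TEB. Again no TEB library reached the lowest duct library, and the fold change was -1.46 ± 0.11 (adjusted p = 3.1e-08).

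H2-Q1, H2-Q2, H2-Q4, H2-Q6, H2-Q10 and H2-T23 fell with them, by log2 values from -1.19 ± 0.09 for H2-T23 to -2.45 ± 0.46 for H2-Q10. Tapbp fell by 0.94 ± 0.10 on the log2 scale, Psmb8 by 0.82 ± 0.17, Tap2 by 0.56 ± 0.15 and B2m by 0.55 ± 0.12. The Tap2 call was lost without Elf5 duct replicate 1 or PR-cre TEB replicate 1. Tap1, Psmb9, Nlrc5 and Erap1 did not pass, at -0.03 ± 0.09, -0.04 ± 0.16, 0.02 ± 0.40 and -0.17 ± 0.09. Tap1 and Psmb9 are neighbours transcribed away from each other, Psmb9 starting at position 34187330 on the minus strand and Tap1 at 34187556 on the plus strand of chromosome 17. H2-Q7 passed narrowly (adjusted p = 0.048) and lost its call in 25 of 33 alternative analyses.

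Basal TEB libraries also had less of the basal marker set. The sum of 10 basal markers was 33411 to 36689 CPM in basal duct and 7694 to 15401 CPM in basal TEB. Of the 10, 7 were called lower, against 22.8% of all tested genes. In bulk samples, fewer cells of a type and less RNA per cell cannot be told apart, and the part of this shift in the class I values was not tested. Endothelial cells carry much class I, and 6 of 10 endothelial markers were lower in basal TEB, their sum being 13.5 to 123 CPM in basal duct and 22.9 to 29.8 CPM in basal TEB. The part of these cells in the class I values was not tested either.

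In luminal cells, 11 genes of class I presentation rose in TEBs. Of the 37 genes, 11 were higher and 10 lower, where 38.7% of all tested genes were called (20.0% higher and 18.6% lower), and the median log2 fold change of the 30 genes was 0.12. The 11 were B2m, H2-K1, H2-D1, H2-Q4, H2-Q6, H2-Q7, H2-T22, Tap1, Psmb9, Erap1 and Nlrc5. B2m was 399 ± 179 CPM in luminal duct and 597 ± 274 CPM in luminal TEB (SD over 4 gates, n = 8 each), a log2 fold change of 0.57 ± 0.08 (adjusted p = 4.2e-05). The arms overlapped, while within each gate both TEB libraries were above both duct libraries. H2-Q7 and H2-Q6, the Qa-2 heavy chains, rose by 1.34 ± 0.13 and 1.20 ± 0.15, H2-K1 by 0.32 ± 0.07, H2-D1 by 0.37 ± 0.08, Tap1 by 0.48 ± 0.06 and Psmb9 by 0.60 ± 0.10. H2-Q4 and Erap1 passed narrowly (adjusted p = 0.049 and 0.042) and lost their calls in 25 and 21 of 33 alternative analyses. Tap2 fell, by 0.56 ± 0.10, as it did in basal cells, and so did H2-T23, by 0.32 ± 0.06. The 10 lower genes were 7 of class II, 2 of them (H2-Oa and H2-Ob) with no count in some group, together with Tap2, H2-T23 and H2-Ke6, a steroid dehydrogenase gene with an H2 symbol by location only.

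**Figure D2:**
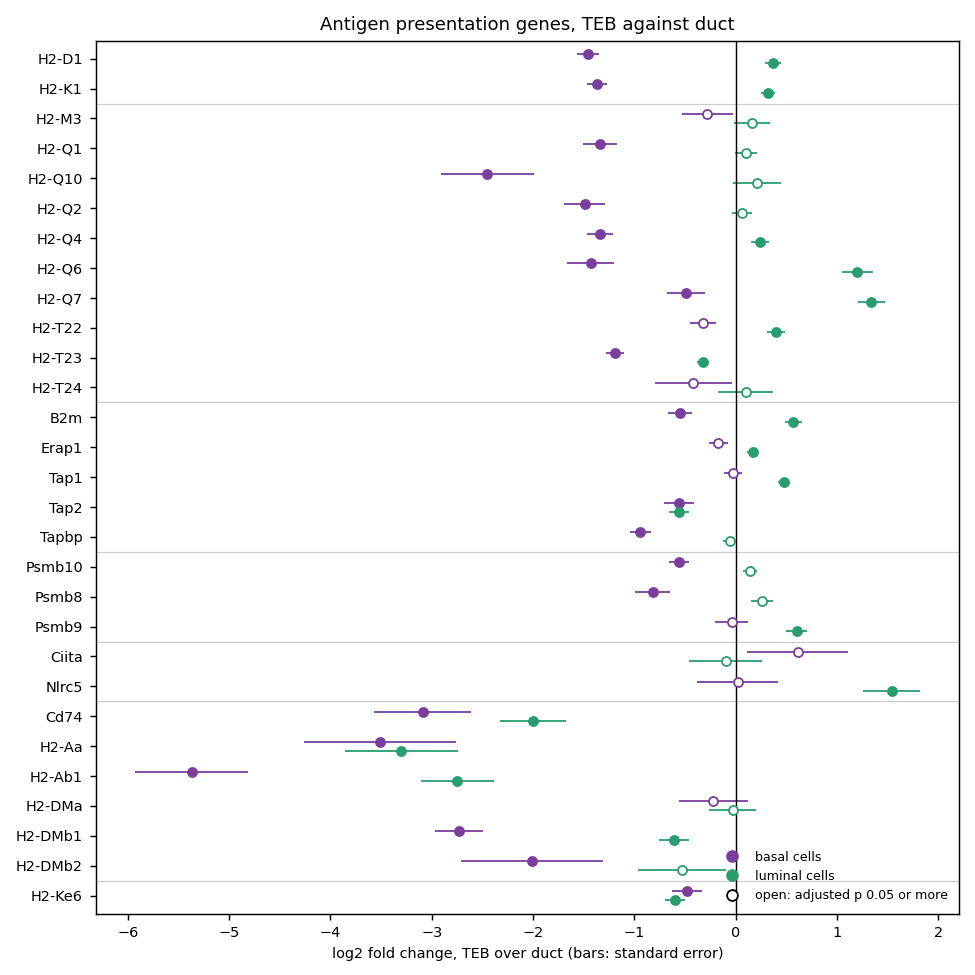
Log2 fold change of TEB over duct in basal (purple) and luminal (green) cells for the 29 genes with a mean of at least 1 CPM, grouped by role; bars are standard errors and open circles did not pass an adjusted p of 0.05. H2-K1 stands at -1.37 in basal and 0.32 in luminal cells, while Tap2 stands at -0.56 in both.

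The difference between the layers was itself tested. The TEB effect was lower in basal than in luminal cells for 22 of the 37 genes and higher for 0, where 26.3% of all tested genes were called (14.9% lower and 11.4% higher). H2-M2 and H2-M9 are again among the 22, and the median over the 30 genes was -0.98. The difference was -1.70 ± 0.12 for H2-K1 (adjusted p = 3.2e-08), -1.82 ± 0.13 for H2-D1, -2.64 ± 0.28 for H2-Q6, -1.12 ± 0.14 for B2m, -0.88 ± 0.12 for Tapbp and -0.51 ± 0.11 for Tap1. Tap2 did not differ beyond its error, at 0.00 ± 0.18. The difference for Nlrc5, -1.52 ± 0.49, lost its call in 15 of 32 alternative analyses, the fit with a replicate block among them. Within the same 32, H2-M2 lost its call in 20, Erap1 in 15, H2-M9 in 10 and Psmb9 in 5.

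Gate by gate, different numbers of genes passed the test. In GFP- cells 14 of the 37 genes were higher and 3 lower in TEB (18.5% of all tested genes called, 8.85% higher and 9.65% lower), with H2-K1 at 0.77 ± 0.13, H2-D1 at 0.79 ± 0.15, Tapbp at 0.62 ± 0.13 and Psmb10 at 0.90 ± 0.14. In YFP+ cells 4 were higher and 3 lower (7.86% called, 4.61% higher and 3.25% lower), with H2-Q7 at 1.66 ± 0.26. In GFP+ cells 3 were higher and 7 lower (22.8% called, 11.8% higher and 10.9% lower), and in YFP- cells 4 were higher and 6 lower (18.4% called, 10.5% higher and 7.97% lower). H2-K1 and H2-D1 did not pass in YFP+, GFP+ or YFP- cells. Tapbp fell in GFP+ and YFP- cells, by 0.47 ± 0.13 and 0.68 ± 0.13. Nlrc5 rose most in those progenitor-side gates, by 2.51 ± 0.59 in GFP+ and 2.28 ± 0.59 in YFP- cells. Nlrc5 was 2.56 and 2.98 CPM in GFP+ duct against 15.6 and 15.9 CPM in GFP+ TEB, and 3.13 and 1.88 CPM in YFP- duct against 5.86 and 18.6 CPM in YFP- TEB, the second of these being the library with keratinocyte markers. Over all luminal gates the Nlrc5 rise was 1.54 ± 0.28, and 1.46 without the 2 keratinocyte-marked libraries. The test of the difference between the lineages found 7 genes with a lower TEB effect in the progenitor-side gates and 0 higher (10.6% of all tested genes called, 5.68% lower and 4.93% higher). They were Tapbp (-1.04 ± 0.13), Psmb10 (-0.89 ± 0.14), Erap1, H2-K1, H2-T22, H2-T23 and H2-DMb1. Nlrc5 was not among them (1.71 ± 0.56, adjusted p = 0.068).

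Other genes of antigen presentation were read from a list of 14. In basal TEBs 9 of the 14 were higher and 3 lower. Calr, Canx and Pdia3, which fold heavy chains and glycoproteins in general, rose by 0.58 ± 0.11, 0.49 ± 0.09 and 0.80 ± 0.10. Psme1, a subunit of the interferon-induced proteasome activator, fell by 0.53 ± 0.10. In luminal TEBs 8 were higher and 1 lower, with Psme1 and its partner Psme2 at 0.23 ± 0.07 and 0.49 ± 0.08. Of 16 tested interferon signalling genes, 10 were lower and 0 higher in basal TEBs and 5 were higher and 3 lower in luminal TEBs. Irf1, which binds the ISRE of class I promoters, was lower in basal TEBs (-1.29 ± 0.17) and did not pass in luminal TEBs (0.03 ± 0.12). Of a list of 20 interferon-stimulated genes, 10 were higher and 1, Gbp2, lower in basal TEBs (20.9% and 22.8% of all tested genes), and 17 were higher and 0 lower in luminal TEBs (20.0% and 18.6% of all tested genes). Isg15, a ubiquitin-like member of that list, was 4.24 ± 1.35 CPM in basal duct and 9.58 ± 4.86 CPM in basal TEB (SD, n = 4 each).

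Among class II genes, Cd74, H2-Aa, H2-Ab1 and H2-DMb1 were lower in TEBs of both layers, while H2-DMa did not pass in either (-0.22 ± 0.34 in basal and -0.03 ± 0.23 in luminal cells). Cd74 was 22.7 and 7.02 CPM in the Elf5 basal duct libraries and 10.9 and 13.7 CPM in the PR-cre basal duct libraries, against 0.873 and 1.29 CPM in Elf5 basal TEB and 1.5 and 3.18 CPM in PR-cre basal TEB. Every duct library was above every TEB library, and the log2 fold change was -3.09 ± 0.48 (adjusted p = 6.1e-05), or -2.50 without Elf5 duct replicate 1. In luminal cells Cd74 ran from 0.728 to 8.89 CPM in ducts, with a median of 4.14, and from 0.374 to 2.32 CPM in TEBs, with a median of 1.11 (-2.0 ± 0.33). H2-Ab1 fell by 5.37 ± 0.56 in basal and 2.75 ± 0.36 in luminal TEBs, and H2-Aa by 3.51 ± 0.75 and 3.30 ± 0.56. Of the 10 class II genes, 5 were lower in basal TEBs and 7 in luminal TEBs, with 0 higher in either. Of all tested genes, 22.8% were lower and 20.9% higher in basal TEBs, and 18.6% lower and 20.0% higher in luminal TEBs. The summed level of the 18 macrophage and dendritic cell markers was 18.4 to 39.5 CPM in basal duct, 5.28 to 8.22 in basal TEB, 5.18 to 21.0 in luminal duct and 2.56 to 11.8 in luminal TEB. Much of the basal sums was Cd68, at 14.8 ± 3.96 CPM in basal duct and 4.49 ± 1.14 CPM in basal TEB (SD, n = 4 each). Csf1r, Adgre1, Itgax and C1qa averaged at most 0.434 CPM in basal duct. Of the 15 markers tested, 6 were lower in basal and 1 in luminal TEBs, and 2 of the 18 had no count in basal TEB and 2 in luminal TEB. Ptprc (CD45), which marks all white blood cells, was 2.90 ± 3.12 CPM in basal duct and 0.0855 ± 0.109 CPM in basal TEB (SD, n = 4 each). The 8 B cell markers summed to 2.40 to 11.5 CPM in basal duct and 1.17 to 3.22 CPM in basal TEB. The part of these cells in the class II counts was not tested. The plot of class II and B2m levels against these markers gives the values of each library.

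**Figure D3:**
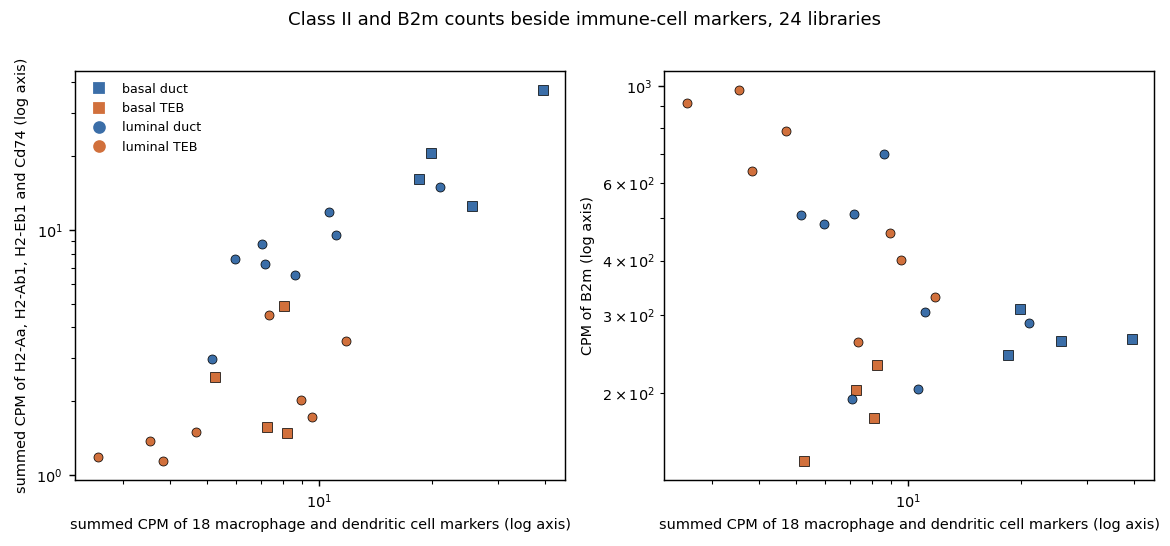
Summed CPM of H2-Aa, H2-Ab1, H2-Eb1 and Cd74 (left) and CPM of B2m (right) against the summed CPM of 18 macrophage and dendritic cell markers, on log axes, with 1 point per library; squares are basal, circles luminal, blue ducts and orange TEBs. The Elf5 basal duct library with the highest marker sum, 39.5 CPM, also had the highest class II sum, 37.3 CPM. Of the marker sum, Cd68 alone averaged 14.8 CPM in basal duct.

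The PR-cre and Elf5 models differed at many H2 genes, in both directions. Other lists also differed, with 16 of 20 interferon-stimulated genes and 8 of 16 interferon signalling genes lower and 0 higher in the PR-cre model, and 5 of 10 endothelial and 4 of 8 fibroblast markers lower. Their part in the H2 values was not tested. Over the 3 matched populations and 2 tissues, 20 of the 37 genes were lower and 6 higher in the PR-cre model, where 26.9% of all tested genes were called (14.0% lower and 13% higher). The 20 include H2-T3, H2-Ob and H2-M9, the last 2 of which lost their calls in 22 and 20 of 32 alternative analyses, and the median over the 30 genes was -0.36. H2-Q10, a heavy chain known as a secreted liver protein, was 1.37 to 23.45 CPM in the 12 Elf5 libraries, with a median of 11.7, and 0 to 1.18 CPM in the 12 PR-cre libraries, with a median of 0.483. It was the 1 gene of the 37 whose 12 libraries of one model did not overlap the 12 of the other, which 0.569% of all tested genes did (0.193% with PR-cre lower and 0.376% higher). Its log2 fold change was -4.46 ± 0.22 (adjusted p = 2.4e-10). The log2 fold change was -4.33 ± 0.38 for H2-DMb2, -3.04 ± 0.09 for H2-Q1, -1.69 ± 0.09 for H2-Q2, -1.24 ± 0.11 for H2-Q7, -1.01 ± 0.08 for H2-Q4 and -0.97 ± 0.06 for H2-D1.

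H2-T22, H2-T23, H2-T24, H2-Ab1, H2-Eb1 and H2-Ke6 were higher in the PR-cre model. For H2-Ab1 the group means of basal duct went the other way. It was 2.315 and 3.425 CPM in PR-cre and 5.452 and 2.279 CPM in Elf5 basal duct. Elf5 TEB libraries held at most 0.163 CPM of H2-Ab1. H2-T23, which encodes the Qa-1 heavy chain seen by natural killer cell receptors, was 28.0, 24.7, 14.6 and 15.8 CPM in the 4 Elf5 basal libraries and 96.2, 107, 29.8 and 37.6 CPM in the 4 PR-cre basal libraries (ducts first in each). Each tissue was higher in the PR-cre model, and over all matched groups the log2 fold change was 1.68 ± 0.05 (adjusted p = 5.1e-13). H2-T22, a ligand of some gamma-delta T cells, was higher by 1.91 ± 0.08. By matched population the log2 fold changes were 1.55 ± 0.09, 1.58 ± 0.09 and 1.90 ± 0.09 for H2-T23 and 2.00 ± 0.14, 1.87 ± 0.14 and 1.85 ± 0.13 for H2-T22 in basal, GFP+ with YFP-, and GFP- with YFP+ cells. Whether these differ between populations was not tested. The model comparison called 12 genes lower and 2 higher in basal cells (9.98% of all tested genes called, 4.54% lower and 5.44% higher). It called 15 lower and 3 higher in GFP+ with YFP- cells (22.4% called, 12.7% lower and 9.67% higher), and 13 lower and 5 higher in GFP- with YFP+ cells (16.2% called, 8.27% lower and 7.89% higher). H2-K1 differed by -0.34 ± 0.05, and did not pass in GFP- with YFP+ cells (-0.05 ± 0.09, adjusted p = 0.82).

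Genes of the pathway outside chromosome 17 differed by less than 2-fold. B2m on chromosome 2 was lower in the PR-cre model by 0.37 ± 0.07 on the log2 scale, Psmb10 on chromosome 8 by 0.33 ± 0.06, Nlrc5 on chromosome 8 by 0.86 ± 0.23 and Erap1 on chromosome 13 by 0.15 ± 0.05. The Erap1 call was lost in 18 of 32 alternative analyses. Ciita on chromosome 16 and Cd74 on chromosome 18 did not pass, with log2 fold changes of 0.70 and 0.17. In the stretch from Tapbp to H2-M2, at 33919478 to 37483554 on chromosome 17, 31 of the tested genes belonged to the set, and the 24 of them with a count in every group had a median absolute log2 fold change of 0.95. The 116 other tested genes with a symbol there had a median of 0.35 and 35.3% of them were called, against 0.22 and 27.3% for genes of other chromosomes. The 12 libraries of one model did not overlap the 12 of the other for 4.31% of those 116 genes and for 0.485% of genes of other chromosomes. Of the 116, 21 were higher and 20 lower in the PR-cre model. The 20 include Gm11127, Gm7030 and Gm10499, whose transcripts share 50-base stretches with H2 genes. The part of such genes in these shares was not tested.

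**Figure D4:**
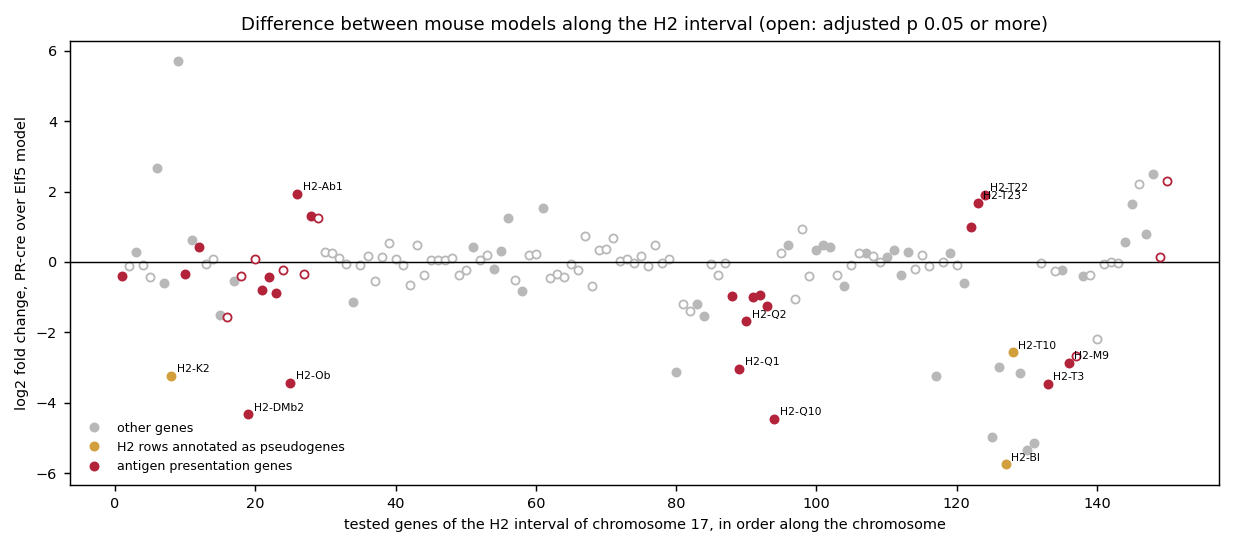
Log2 fold change of the PR-cre over the Elf5 model for the tested genes of the H2 interval of chromosome 17, in their order along the chromosome; red marks antigen presentation genes, yellow H2 rows annotated as pseudogenes, grey other genes, and open circles did not pass an adjusted p of 0.05. H2-Q10 lies at -4.46 and H2-T22 at 1.91.

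Sequence that H2 genes share with other genes may make some of these counts uncertain, which was not tested. Of all 50-base stretches of the annotated transcripts, 70.5% of those of H2-Ke6 (with Gm20427), 34.5% of those of H2-T22, 32.0% of H2-Q6, 26.4% of H2-Q7, 24.8% of H2-DMb2, 19.0% of H2-Q10, 13.6% of H2-T23, 12.8% of H2-D1 and 9.63% of H2-K1 also occurred in another gene, against 0 for B2m, Psmb9, Psmb10, Nlrc5 and Erap1. How reads that fit several genes were counted is not given in the sources used here. The mm10 build is the genome of C57BL/6J mice, whose H2 haplotype is b. The table also lists H2 genes annotated as pseudogenes, which are outside the set, and 3 of them were also lower in the PR-cre model, with log2 fold changes of -5.75 ± 0.18 for H2-Bl, -3.23 ± 0.15 for H2-K2 and -2.57 ± 0.08 for H2-T10. H2-T22 and H2-T10 share 31.2% of the stretches of H2-T22. Their ratio of CPM within a library was 0.189 to 0.289 in the 12 Elf5 libraries and 3.98 to 9.25 in the 12 PR-cre libraries. The ratio of H2-T23 to H2-K1 was 0.0557 to 0.0953 in Elf5 libraries and 0.189 to 0.450 in PR-cre libraries. The ratio of H2-D1 to H2-K1 overlapped, at 0.824 to 1.57 and 0.655 to 0.908. With no strain in the labels, the H2 haplotype, the transgenes and any other difference between the models cannot be told apart.

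**Figure D5:**
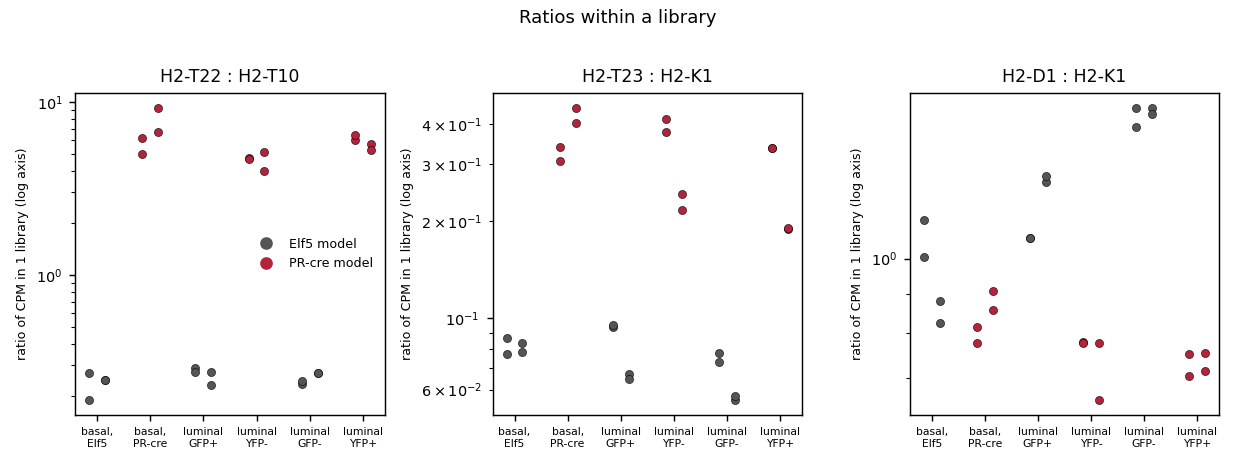
Ratios of CPM within each library for H2-T22 to H2-T10, H2-T23 to H2-K1 and H2-D1 to H2-K1 (log axes) in the 6 populations, Elf5 libraries in grey and PR-cre libraries in red. The first ratio is at most 0.289 in Elf5 and at least 3.98 in PR-cre libraries.

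The TEB effect itself was also compared between the models. Of the 37 genes, 4 had a lower effect in the PR-cre model (H2-K1, H2-D1, H2-T23 and Psmb10) and 1 a higher effect (H2-Q7, 0.95 ± 0.21). Of all tested genes, 2.96% were called (1.27% lower and 1.69% higher). In Elf5 basal TEBs 13 genes were lower and 0 higher (36.4% of all tested genes called, 19.2% lower and 17.2% higher), and in PR-cre basal TEBs 17 were lower and 0 higher (24.7% called, 12.7% lower and 12% higher). In basal cells H2-K1 fell by 0.77 ± 0.14 in the Elf5 and by 1.97 ± 0.14 in the PR-cre model, and H2-D1 by 1.09 ± 0.15 and 1.82 ± 0.16. B2m fell by 0.81 ± 0.17 in the PR-cre model and did not pass in the Elf5 model (-0.28 ± 0.17, adjusted p = 0.20), and the difference between the models did not pass for it (-0.21 ± 0.13 over all gates, adjusted p = 0.47).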

How the data were processed

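Bulk RNA-seq libraries were made by the submitters with the TruSeq RNA v2 kit, per the labels' protocols, a kit that does not mark strand. The authors deposited whole-number read counts per Entrez gene, made with featureCounts on mm10, per the submitters' processing notes. Not given in the sources used here: the aligner, the annotation release and the treatment of multi-mapping reads. Of 27179 genes, 25275 took symbols from the RefSeq table (GRCm38.p6) and 18 from GENCODE, and 1886 had none (1.22% of counts).

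Counts were fitted with edgeR 4.0.16 (R 4.3.3): filterByExpr (minimum count 10, minimum total 15), TMM scaling, and the robust quasi-likelihood F-test with a mean for each of 12 groups over all 24 libraries. P-values were Benjamini-Hochberg adjusted over 18109 genes, called at 0.05. Contrasts average groups on the log2 scale. CPM use TMM-scaled totals. The installed package's default is its legacy fit. The procedure was tested on simulated data with known changes. The labels number replicates without naming separate animals. P-values therefore reflect how far these libraries spread, which may be technical.

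Every gene of the set may be named, and pathway and marker lists are described by counts and medians. Members and lists were chosen with earlier results of these data known. Alternatives were RLE and upper-quartile scaling, DESeq2 1.42.0, no low-count filter, only the groups compared, a replicate block, leaving out each library, leaving out the 2 libraries with keratinocyte markers, and adjusted deviances. The last 2 were added after seeing the data. The legacy fit had been planned as an alternative, and as a copy of the main fit it is still counted among the alternatives.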

Additional observations from a re-analysis of the deposited data

Results flagged for a closer look

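The TEB effect differed between basal and luminal cells for 22 of the 37 tested genes, as given above. Between the progenitor-side gates and the hormone-sensing gates, the difference in TEB effect was -0.60 for Erap1, -1.04 for Tapbp, -0.52 for H2-K1, -1.30 for H2-DMb1, -0.55 for H2-T23, -0.67 for H2-T22 and -0.89 for Psmb10, on the log2 scale. Between the PR-cre and Elf5 models it was -0.58 for H2-K1, -0.55 for H2-D1, 0.95 for H2-Q7, -0.67 for H2-T23 and -0.51 for Psmb10.

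Single libraries stood far from the rest of their arm in 4 of 116 combinations of gene and arm, among the 29 genes with a mean of at least 1 CPM. Chance flags about 1 in 20 such groups. In basal duct, Elf5 replicate 1 had 11.1 CPM of Nlrc5, against 4.63 CPM in the nearest library, and 3.56 CPM of H2-DMb1, against 5.50 CPM. Elf5 replicate 2 had 2.95 CPM of H2-DMa, against 1.5 CPM. In luminal duct, GFP- replicate 2, one of the libraries with keratinocyte transcripts, had 33.5 CPM of Nlrc5, against 13.9 CPM.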

How the results depend on the processing

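No call on a gene of the set reversed in any alternative. Over the genes, the 6 main comparisons and the alternatives, 7204 values were set beside the main result. Of these, 6922 stayed on their side of the threshold, 239 lost a call and 43 gained one. The values that stayed include those of the legacy fit, which is the main fit itself and could not differ. Leaving out each library in turn gave 17 to 22 lower genes in basal TEBs, 9 to 11 higher and 9 to 10 lower in luminal TEBs, and 17 to 23 lower for the difference. The basal against luminal comparison gave 1 to 3 higher and 21 to 23 lower genes, the luminal gates 4 higher and 21 to 22 lower, and the models 5 to 8 higher and 17 to 20 lower. DESeq2 gave 25 lower genes in basal TEBs, and 9 higher and 10 lower in luminal TEBs. Without the 2 libraries with keratinocyte markers, 23 genes were lower in basal TEBs (H2-T22 gained), 10 higher and 10 lower in luminal TEBs (H2-Q4 lost), and 21 differed between the layers (H2-M2 and H2-M9 lost, Cd74 gained). In basal against luminal cells 3 were higher and 21 lower (H2-M9 gained, H2-DMb2 lost), in the luminal gates 4 higher and 22 lower (H2-DMb2 gained), and between the models 6 higher and 20 lower (Erap1 lost, Tap2 gained).

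Deviations from the group mean correlated weakly between same-numbered libraries, at 0.003 to 0.152, and were positive in all 30 pairs of groups. These values do not settle whether same-numbered libraries belong together. The main fit did not pair them, and a replicate block was tried as an alternative. With a replicate block, 23 genes were lower in basal TEBs, 10 were higher and 10 lower in luminal TEBs, 20 differed between the layers, 22 were lower in basal than luminal cells, 21 in the progenitor-side gates and 19 in the PR-cre model. Comparisons within single gates and single models were not refitted under the alternatives. The depth limits the class II chains most, since 3 counts are up to 0.096 CPM and several TEB libraries held less than 0.3 CPM of H2-Aa.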
